A study of Caenorhabditis elegans with 4 samples.

Results

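The binding regions described here are those of NHR-12::GFP in the centre of chromosome V of Caenorhabditis elegans, as mapped by chromatin immunoprecipitation followed by sequencing (ChIP-seq). A region belonged to the centre when its midpoint lay in the middle 50% of the chromosome, V:5231038-15693111 on genome build WormBase WS220. This stretch of 10.5 Mb makes up 10.4% of the nuclear genome. It held 15 of the 197 regions in the authors' combined list, 2583 of the 25045 entries in the list of ChIP replicate 1 and 3015 of the 30000 entries in that of replicate 2. Membership was set by position alone and used no score.

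All animals were hermaphrodite L2 larvae of strain OP318, with the genotype unc-119(ed3) and the integrated transgene wgIs318, which carries nhr-12 fused to TY1, EGFP and FLAG tags together with a rescuing copy of unc-119. The strain had been outcrossed 3 times and animals were grown at 20 °C. The listed genotype names no change to the endogenous nhr-12 gene, and the lists measure neither the tagged nor the untagged protein. There were 2 anti-GFP ChIP samples and 2 input samples from this same strain, and no untagged strain is among the labels. Nothing in the labels ties the replicates to separate cultures, and the spread between them may be technical. Region lists of the input samples were not analysed here. The lists give no read counts, so depth is unknown.

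NHR-12 belongs to the nuclear hormone receptors, transcription factors that bind DNA through a zinc-finger domain and that often carry a second domain for small lipophilic ligands. The family is greatly expanded in nematodes, and many of its members are related to the vertebrate receptor HNF4. In the gene table of assembly WBcel235, 167 of the 269 protein-coding genes named nhr with a number lie on chromosome V, nhr-12 (CELE_R04B5.4) among them. The centres of worm autosomes recombine little and are known for conserved, broadly expressed genes. The arms recombine more and hold more repeats and, on V, large families of chemoreceptor genes. That gene table is of another build than the lists, so no gene was assigned to a region, the expected gene content of the centre was not checked, and no sequence is shown.

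Within chromosome V, combined regions were denser in the centre than on the arms. The centre held 15 regions, or 1.43 per Mb, and the arms together held 3, or 0.287 per Mb, a ratio of 5.0 with a 95% interval of 1.41 to 26.9 (two-sided exact binomial test, adjusted p = 0.0226 over 3 density comparisons). All 3 arm regions lay on the left arm and the right arm held 0. The ratio was not computed with other limits of the centre, and the middle 40% of V held 10 of its 18 combined regions. The ratio was 2.67 (adjusted p = 0.0887 by the same exact test) in a list built without replicate 2, from the 197 first nuclear entries of replicate 1, and the call was lost there. That list cuts through 344 nuclear entries with the same highest score. Over all 344 (a choice made once the data had been seen) the centre held 30 and the arms 14, a ratio of 2.14 that did not pass either (same exact test, adjusted p = 0.0679). The position of regions on V was known from earlier results of these lists, so this is no independent evidence.

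Set against other chromosomes, the V centre was not shown to differ. The middle 50% of chromosomes I to IV held 69 combined regions, or 2.24 per Mb, and the ratio of the V centre to them was 0.640 with an interval of 0.340 to 1.13 (exact binomial test, adjusted p = 0.198). The individual centres ran from 1.03 per Mb on IV through 1.70 on II and 2.79 on I to 3.77 on III. The value of 1.43 on V lay inside that range, next above IV. Relative to the whole rest of the nuclear genome the ratio was 0.707, with an interval of 0.388 to 1.20 (exact binomial test, adjusted p = 0.243). As a share of the combined list, the centre's 7.61% (95% interval 4.32 to 12.2) was likewise not shown to differ from its 10.4% of length (exact binomial test, p = 0.243). Such intervals cover the counting error alone, since regions are no replicates of a condition.

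In the long replicate lists the contrast between centre and arms was much smaller. Replicate 1 had 247 entries per Mb in the centre and 209 on the arms, a ratio of 1.18. For replicate 2 these were 288 and 256 per Mb, a ratio of 1.12. The centre thus held 54.1% of the V entries of replicate 1 (interval 52.7 to 55.6) and 52.9% of those of replicate 2 (51.6 to 54.2). Both replicates put the centre above the arms. The V centre held 10.3% of the whole list of replicate 1 and 10.05% of that of replicate 2, on 10.4% of nuclear length. The centres of the other autosomes had 260 and 284 entries per Mb. Strong entries were also commoner in the V centre than on the V arms. Of the centre's entries, 10.6% in replicate 1 and 9.92% in replicate 2 ranked in the strongest 10% of their whole list, against 6.26% and 6.49% on the arms. The centres of the other autosomes gave 11.2% and 10.7%. The V centre was thus near the 10% of the whole list, and the arms were below it. These shares were not tested, because entries of a list overlap one another. In the centre, 42.5% of the entries of replicate 1 and 36.1% of those of replicate 2 overlapped another entry of the same list, and merging left 2007 and 2448 loci that covered 13.1% and 13.6% of the centre.

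Along the centre, divided into 10 bins of 1.05 Mb, the replicate lists rose and fell together, while the combined regions were too few to trace a course. Replicate 1 ranged from 211 entries in bin 4 to 323 in bin 7, and replicate 2 from 259 in bin 10 to 367 in bin 7. Across the 10 bins the 2 counts had a Pearson r of 0.84 and a Spearman rho of 0.82, given as a description, since bins share sequence features and the replicates share a strain and a protocol. Combined regions were most numerous in bins 1 and 6, with 4 each, and bins 7 and 8 held 0. Those in bin 1 include regions 3 and 4, described below, which overlap by 204 bp and form a single locus. With 15 regions over 10 bins, these counts carry a large counting error and were not tested. Entries in the strongest 10% of their list were most numerous in bin 1, with 41 in replicate 1 and 42 in replicate 2. Bin 7 held 35 and 39 of them.

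**Figure D1:**
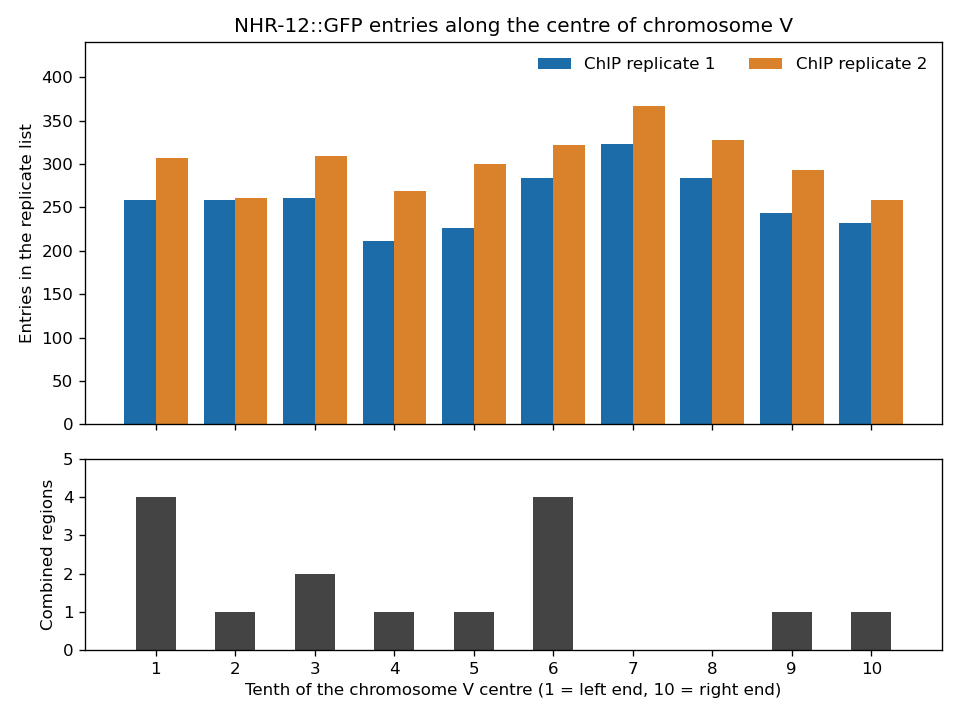
Entries of the ChIP replicate lists (top, bars side by side) and combined regions (bottom) in each of 10 equal bins of the chromosome V centre, from left to right; the y axes are numbers of entries and the bars have no error. Both replicates peak in bin 7, with 323 and 367 entries, where the combined list has 0 regions.

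The longest stretch of the centre without a combined region ran for 3.30 Mb, from V:10897431 to V:14199914. It takes up 31.6% of the centre, and held 35.7% of the centre's entries in replicate 1 (921) and 34.4% of those in replicate 2 (1036). Strong entries were present in it. Of the centre's 30 entries at the highest score of replicate 1, 10 lay there, as did 6 of its 26 entries in the strongest 1% of replicate 2. Bins 7 and 8, which lie within this stretch, held 1 of the 17 centre entries in the list built without replicate 1. Of the 30 tied entries of replicate 1 they held 7. The replicate lists had 279 (replicate 1) and 314 (replicate 2) entries per Mb in the stretch, above their means of 247 and 288 per Mb over the whole centre.

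Long gaps were common to the replicate lists. No entry of either replicate was found between V:8805222 and V:8901411, a gap of 96.2 kb, nor between V:10043185 and V:10103409, a gap of 60.2 kb. In the nuclear genome as a whole these were the second and the third longest gaps shared by both lists. The longest, of 221 kb, started at V:2344040 on the left arm. Elsewhere in the centre the merged loci of both lists were a median of 1370 bp apart, so these gaps stand far outside the usual spacing. The cause of the gaps was not tested, and the position of the nhr-12 gene, which the transgene also carries, was not compared with them because gene positions on WS220 were not used here.

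The 15 combined regions, numbered from left to right, are described next with the authors' score in each list. The score has no stated scale and its highest value differs between lists, at 2.37 in the combined list, 2.86 in replicate 1 and 2.17 in replicate 2, so scores are compared only within a list. Ranks count from the strongest entry, and entries tied in score are ordered by the number in their name. In replicate 1 the highest score is shared by 363 entries and in replicate 2 by 75, so ranks up to these numbers do not order strength. For each region the best-ranked overlapping entry of each replicate is given. In the combined list 14 of the 15 had the list's usual width of 564 bp.

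The highest combined score of 2.37 was held by 5 of the 15 regions (33.3%), against 51.8% over the whole combined list. Region 13, V:10897254-10897430, was the narrowest in the centre, at 177 bp. Its best entries had the highest score of both replicates, 2.86 at rank 51 of 25045 in replicate 1 and 2.17 at rank 50 of 30000 in replicate 2. Midpoints of those entries lay within 6.5 and 3.5 bp of its own, and regions 3 and 4, below, had the same scores in both replicates.

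Region 9, V:9546695-9547258, scored 2.86 in replicate 1 (rank 72) and 1.71 in replicate 2 (rank 85). Region 11, V:10712333-10712896, scored 2.86 in replicate 1 (rank 61) and 1.34 in replicate 2 (rank 168). Both held the highest score of replicate 1 and lay in the strongest 1% of replicate 2. Region 3, V:6224419-6224982, and region 4, V:6224779-6225342, overlapped by 204 bp and drew on the same best entries, with 2.86 in replicate 1 (rank 68) and 2.17 in replicate 2 (rank 58). Region 3 had the highest combined score, whereas region 4 scored 1.47. Counted as loci, the 15 regions therefore came to 14. The best entry of replicate 1 was centred 399 bp from region 3, whose nearest entry there, at 119 bp, ranked 1995. Another entry of replicate 1, V:6224541-6225140, overlapped both regions and had the same score of 2.86, with entry number alone placing it lower (rank 75). It and the entry of replicate 2 at rank 58 were each other's best overlap, with midpoints 113 bp apart. The best entry of replicate 2 was centred 333 bp from region 4, whose nearest entry there, at 32 bp, ranked 14836. Region 2, V:5843158-5843721, was the fifth at the highest score, with 1.44 in replicate 1 (rank 1032) and 1.67 in replicate 2 (rank 95). Its best entry in replicate 1 was centred 303 bp away, and the entry centred nearest to it, at 30 bp, ranked only 6336.

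A further group of regions was strong in both replicates at a lower combined score. Region 8, V:8500212-8500775, had 1.60 in the combined list, 2.86 in replicate 1 (rank 251) and 1.0 in replicate 2 (rank 266). Region 14, V:14199915-14200478, had 2.02, then 2.86 (rank 332) and 0.972 (rank 298). Region 10, V:10536757-10537320, had 1.80, then 2.86 (rank 130) and 0.678 (rank 519). Region 10 was the weakest of the 15 in replicate 2, and its best entry there was centred 323 bp away, while a weaker one (rank 1457) had the same midpoint as the region.

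The remaining regions were strong in replicate 2 and weaker in replicate 1. Region 7, V:7728043-7728606, had a combined score of 1.58, with 0.913 in replicate 1 (rank 1831) and 0.806 in replicate 2 (rank 400). Region 12, V:10715660-10716223, lay 2.76 kb to the right of region 11 and had a combined score of 1.68, with 0.774 (rank 2250) and 1.56 (rank 140). Region 1, V:5504946-5505509, had 1.93, with 0.695 (rank 2639) and 1.59 (rank 128). In these 3 regions the entry of replicate 1 was below the tie at the highest score, and in region 1 it was also just outside the strongest 10%.

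Region 5, V:7173345-7173908, had a combined score of 2.01, with 0.511 in replicate 1 (rank 3801) and 1.64 in replicate 2 (rank 103). Region 6, V:7431576-7432139, had 1.62, with 0.227 (rank 8688) and 1.59 (rank 124). Region 15, V:15435026-15435589, had 1.47, with 0.365 (rank 5602) and 1.57 (rank 138). The entry of replicate 1 at region 15 overlapped it by only 59 bp and was centred 523 bp away, whereas that of replicate 2 had the same midpoint. Region 15 is therefore matched in replicate 1 by a flanking entry and not by one centred on it.

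All 15 regions overlapped an entry of both replicates, against 94.9% of the whole combined list, and this is no independent evidence because the combined list was made from both. Their support was uneven between the replicates. Best entries held the highest score of replicate 1 for 8 of the 15 regions, against 64% of the whole combined list. In replicate 2 the best entries of 13 of 15 lay in the strongest 1%, against 77.2%. Regions 3 and 4 share their best entries and are each counted. The strongest 10% held 11 in replicate 1 (83.8% over the whole list) and 15 in replicate 2 (94.4%). The median best rank of the 15 in replicate 2 was 128, and that of the combined regions outside the V centre was 130.5. In replicate 1 both medians fell within the tie at the highest score. None of these differences between the centre and the whole list was tested.

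**Figure D2:**
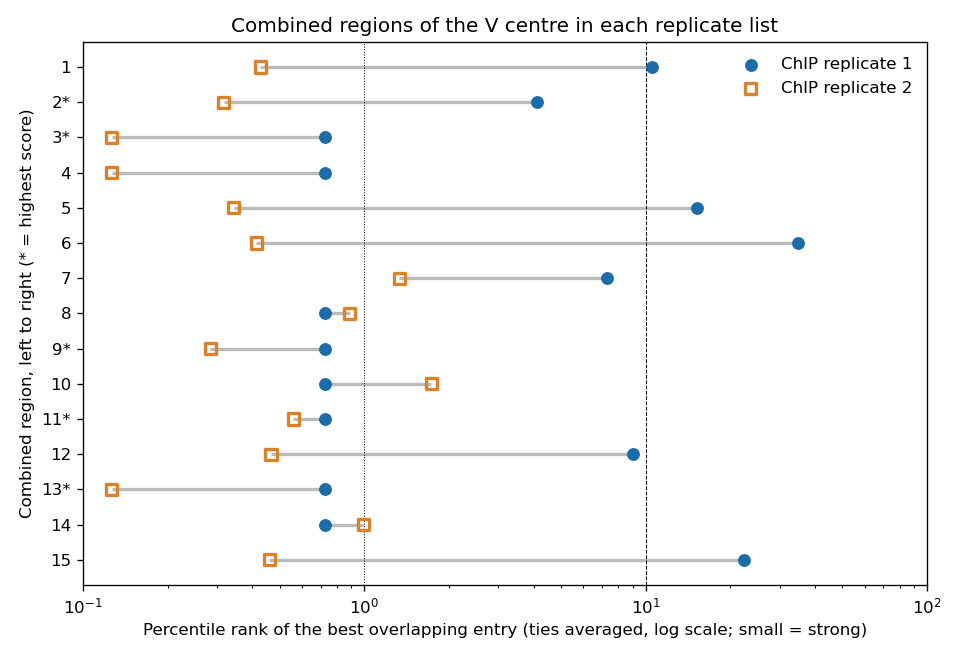
Percentile rank of the best overlapping entry in ChIP replicate 1 (filled circles) and replicate 2 (open squares) for the 15 combined regions of the V centre, with ties averaged, on a log axis where small values are strong; dotted and dashed lines mark 1% and 10%. Entries tied at the highest score sit at 0.727% in replicate 1 and 0.127% in replicate 2, and 4 regions fall beyond 10% in replicate 1 and 0 in replicate 2.

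Nearest midpoints lay close to the combined regions. The nearest overlapping entry was centred a median of 28 bp away in replicate 1 and 27 bp in replicate 2. It was within 100 bp for 13 regions in replicate 1, the exceptions being region 3 at 119 bp and region 15 at 523 bp, and for all 15 in replicate 2. Over the whole combined list the medians were shorter, at 21 bp in replicate 1 and 17 bp in replicate 2. There 174 and 187 of the 197 regions had such an entry within 100 bp. A window of 5 kb to either side of the midpoint held a median of 4 entries in each replicate, the same medians as over the whole combined list.

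No combined region lay right at a limit of the centre, although bin 1, at its lower end, held 4 of the 15. The outermost were region 1, 274 kb inside the lower limit, and region 15, 258 kb inside the upper one. Outside, the nearest combined region was V:1805674-1806237 on the left arm, 3.43 Mb below the lower limit. Its score was 1.47, with 1.99 in replicate 1 (rank 601) and 1.58 in replicate 2 (rank 133). In the replicate lists, entries flanked both limits within 15.7 kb. At the lower limit the nearest inside scored 0.0222 in replicate 1 and 0.0343 in replicate 2, and the nearest outside 0.176 and 0.0323. At the upper limit the inside values were 0.234 and 0.0749 and the outside values 0.243 and 0.161.

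Over all entries, agreement between the replicates in the centre was close to that of the whole lists and slightly below it. In replicate 1, 1085 of 2583 entries (42.0%, interval 40.1 to 43.9) overlapped an entry of replicate 2 by at least 1 bp, against 44.1% over the whole list. In replicate 2, 1078 of 3015 entries (35.8%, interval 34.0 to 37.5) overlapped replicate 1, against 36.2%. The arms of V gave 39.9% and 31.9%, and the centres of the other autosomes 42.5% and 37.5%. With midpoints required to lie within 100 bp, 372 entries of each list were matched, or 14.4% in replicate 1 and 12.3% in replicate 2, against 15% and 12.5% over the whole lists. Of the length that merged entries covered, 0.331 Mb was shared, which is 24.1% of the covered length in replicate 1 and 23.3% in replicate 2. The bins along the centre varied little, from 38.2% to 46.5% in replicate 1 and from 32.3% to 39.5% in replicate 2. None of these comparisons was tested. Part of the overlap by 1 bp arises by chance, since entries are 600 and 516 bp wide and cover 13.1% and 13.6% of the centre. That part was not estimated.

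Overlap was most frequent among the strongest entries. In replicate 1 those of the centre overlapped less often than strong nuclear entries as a whole, a difference that was not tested. Of the centre's entries in the strongest 10% of replicate 1, 138 of 273 (50.5%, interval 44.5 to 56.6) overlapped replicate 2, against 59.2% of all nuclear entries in that class. In replicate 2 it was 150 of 299 (50.2%, interval 44.4 to 56.0), against 49.8%. Among the weakest 10% the centre gave 42.3% in replicate 1 and 29.0% in replicate 2. At the highest score of replicate 1, 18 of 30 centre entries overlapped the other list (79.1% of nuclear entries) and 8 of 30 overlapped the combined list (38.1%). In the strongest 1% of replicate 2 these were 20 of 26 (79.2%) and 12 of 26 (54.8%).

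**Figure D3:**
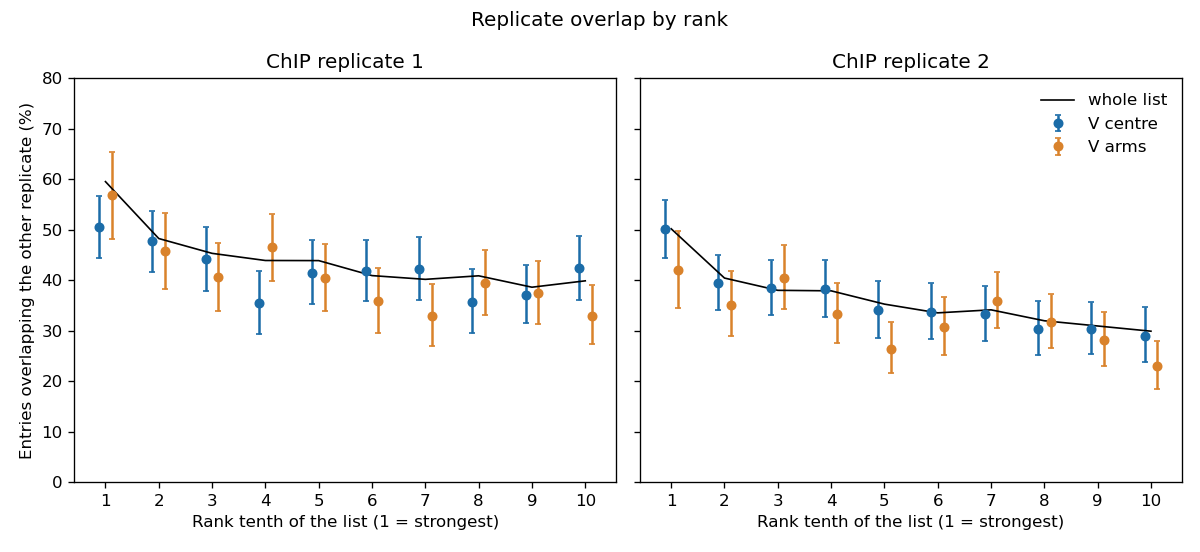
Share of entries that overlap the other replicate by at least 1 bp, in 10 rank bins of each list from strongest to weakest, for the V centre and the V arms (points with 95% exact binomial intervals) and the whole list (line). In the strongest bin the V centre gives 50.5% in replicate 1 and 50.2% in replicate 2.

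The centre held 887 pairs of entries that were each other's best overlap between the replicates. Their midpoints were a median of 141 bp apart, and 372 pairs (41.9%) lay within 100 bp, against 42% of all nuclear pairs. Distances were shorter in stronger pairs. Where both entries ranked in the strongest 10% of their lists, the median distance was 63 bp and 24 of 35 pairs lay within 100 bp, against 72.7% of such pairs in the nuclear genome. Where both came from the weaker 50%, it was 184 bp over 191 pairs. The 16 pairs at combined regions had a median of 46 bp. Percentile ranks of the paired entries had a Spearman rho of 0.12 over the 887 pairs, given as a description, since some pairs overlap by chance and entries of a list are not independent.

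**Figure D4:**
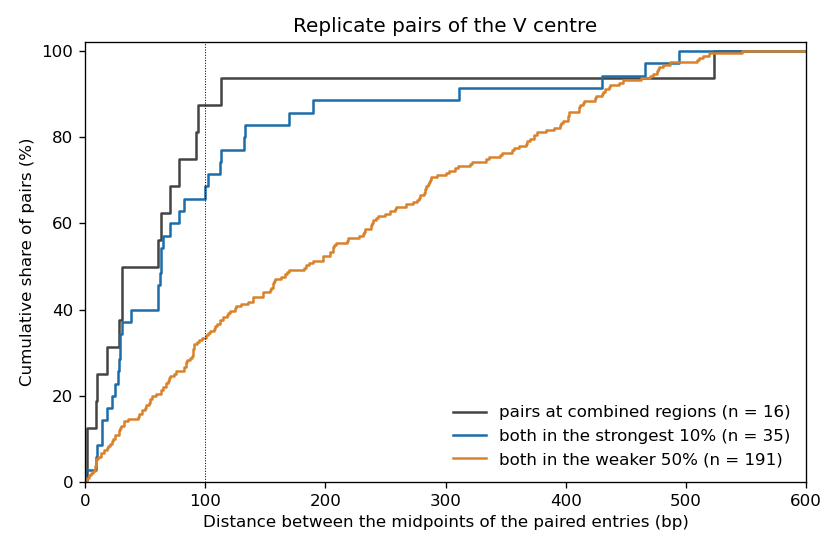
Cumulative share of V centre pairs by the distance between the midpoints of the paired entries of replicates 1 and 2, in bp, for pairs at combined regions, pairs with both entries in the strongest 10% and pairs with both in the weaker 50%; the dotted line marks 100 bp. The median distances are 46, 63 and 184 bp.

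Of the 35 pairs strong in both replicates, 26 overlapped no combined region. The other 9 make up a smaller part than the 41.4% of such pairs that overlapped the combined list in the nuclear genome, a difference that was not tested. The 10 pairs of the centre with the best ranks among those 26 are named by their entry in replicate 1. First was V:13364210-13364809, with a score of 2.03 in replicate 1 (rank 542) and 0.558 in replicate 2 (rank 708), and midpoints 14 bp apart. The second was V:11313866-11314465, with 1.96 (rank 641) and 0.645 (rank 554), 63 bp apart. Both lie in the 3.30 Mb stretch without combined regions. In replicate 1 both ranked above the best entries of regions 1, 2, 5, 6, 7, 12 and 15, and in replicate 2 both ranked below the best entries of all 15 regions.

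Neighbouring pairs near the right end came next. At V:14688279-14688878 the scores were 1.47 (rank 898) and 0.563 (rank 672), and at V:14685468-14686067 they were 2.44 (rank 382) and 0.379 (rank 1119). Between them in order came V:14366805-14367404, with 1.46 (rank 914) and 0.686 (rank 511). The pair at V:8631206-8631805 had 1.93 (rank 668) and 0.361 (rank 1264), and that at V:10352903-10353502 had 1.43 (rank 1059) and 0.378 (rank 1122) with identical midpoints. All of these lay in the strongest 10% of both lists and held the highest score of neither. The pairs at V:12001837-12002436 (rank 230) and V:6000202-6000801 (rank 326) held the highest score of replicate 1 and scored 0.350 (rank 1296) and 0.337 (rank 1361) in replicate 2. The sixth in order, V:13565447-13566046, had 2.01 (rank 565) and 0.378 (rank 1145). In all, 4 of the 10 lay in the stretch without combined regions.

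Other strong entries had no counterpart at all. In replicate 1, 12 of the 30 centre entries at its highest score of 2.86 were unshared. The 18 that overlapped replicate 2 make up 60%, against 79.1% of all nuclear entries at that score, a difference that was not tested. Of the 12 unshared, the 3 that come first by the number in their name were V:8935670-8936269 (rank 136), V:8121151-8121750 (rank 169) and V:11147316-11147915 (rank 171). The nearest entries of replicate 2 to these 3 were 1343, 407 and 383 bp away and weak, at ranks 13905, 25570 and 18849. In replicate 2 the strongest was V:9344115-9344630, at its highest score of 2.17 (rank 55), with the nearest entry of replicate 1 at 521 bp (rank 6047). It was followed by V:11299317-11299832, with 1.57 (rank 134), and V:7901312-7901827, with 1.21 (rank 171). The nearest entries of replicate 1 to these were 5035 and 2499 bp away. None of these 6 entries overlapped a combined region. In all, 1498 of the 2583 centre entries of replicate 1 and 1937 of the 3015 of replicate 2 had no overlap in the other list. The shares that did overlap, 42.0% and 35.8%, were close to the 44.1% and 36.2% of the whole lists.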

How the data were processed

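Regions were called by the authors and deposited as 3 lists, 1 for each ChIP replicate and 1 combined. The build is WormBase WS220, per the file headers, and the source column names SPP and IDR (irreproducible discovery rate). Versions, thresholds and the aligner are not stated there and not given in the sources used here. The deposited score is the authors' own, with no stated scale, and was used only to rank or filter within a list. Usual widths are set by the caller, so width says little on the extent of binding.

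Regions overlapped when they shared at least 1 bp. The largest end of any listed region stood for each chromosome's length, and the middle 50% of I to IV for their centres. An exact binomial test (two-sided) set counts of combined regions against the split of length, and the p-values of 3 density comparisons were adjusted by Benjamini-Hochberg. Intervals are 95% exact binomial (Clopper-Pearson) and cover counting error only. With 2 ChIP samples of 1 group, no test over samples was possible. Every combined region of the centre is named. From the replicate lists, the named items are the 10 best pairs outside the combined list by the worse of their 2 percentile ranks and the 3 first unshared entries of each list, with ties in score broken by entry number. The members, lists and tests were chosen with earlier results of these data known. Functions were tested on simulated data. Overlaps and tests ran in Python 3.11.15 with scipy 1.17.1, pandas 2.3.3 and numpy 2.4.6, and plots in matplotlib 3.10.9.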

Additional observations from a re-analysis of the deposited data

How the results depend on the processing

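The higher density of combined regions in the V centre than on the arms kept its direction in all 5 alternatives that were run. Those alternatives kept the limits of the centre, and the ratio to the arms was not computed with other limits. The middle 40% of V held 10 of the 18 combined regions on V, so the size of the ratio depends on where the limits are set. It was 4.66 with regions within 1 kb merged, with its call kept (exact binomial test, adjusted p = 0.0382). With the weaker 50% of combined regions left out it was 5.0, on 5 against 1 regions, and lost its call (exact test, adjusted p = 0.219), where the smaller number of regions limits the test. In lists built without 1 replicate it ran from 2.14 to 5.66, with the call kept without replicate 1 (exact test, adjusted p = 0.00773). It was lost without replicate 2, both in the 197 first entries of replicate 1 (2.67), which entry numbers pick from a tie, and over the whole tie (2.14). The cause was not tested. The comparisons with the other centres and with the rest of the genome stayed below 1 and without a call in those alternatives. The share of the combined list, 7.61%, gained a call as low with the centre widened to the middle 60% of each chromosome, where it faced 12.5% of length (exact test, p = 0.0400): the wider limits added no region. With the middle 40% the share was 5.08%, on 10 regions, against 8.35% of length and without a call (exact test, p = 0.120). Replicate overlap in the centre depended on the rule. In replicate 1 it was 14.4% with midpoints within 100 bp, 25.7% with 50% overlap of both entries and 29.0% in the stronger 50% of both lists. In replicate 2 these were 12.3%, 22.1% and 24.7%. The last setting also leaves out the weaker 50% of the entries that could be overlapped, so its shares do not measure agreement among strong entries. The centre's share of V entries was 56.9% and 55.9% in the stronger 50% of replicates 1 and 2. The counts in bins 7 and 8 and the whole tie were added after the data were seen. The planned match to nearby genes was not run. No paired analysis was possible because replicate numbers pair ChIP with input samples, and input region lists were not analysed here.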
